A study of Mus musculus with 4 samples.

Results

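The genes described here are those named Ube2, which encode most of the ubiquitin-conjugating (E2) enzymes, in mouse oocytes with and without knockdown of Parp12. Members were taken by name from the deposited count table: every gene symbol that starts with Ube2 and a letter, leaving out symbols that end in -ps and a number. This gave 41 of the 55453 genes in the table. The rule used names alone, though the family was chosen with earlier results of these data known. The symbols Ube2l3-ps1 and Ube2n-ps1, were left out by that rule. The cells were oocytes of the germinal vesicle stage, arrested in meiotic prophase before maturation, and were separated directly from the ovary. Control oocytes were of the WT genotype, and the other group had the genotype Parp12 knockdown, with 2 RNA-seq libraries of each. Parp12 encodes an ADP-ribosyltransferase of the PARP family. The sources used here do not give the method of knockdown, or the strain, age and number of the animals.

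An E2 enzyme stands in the middle of a cascade. An E1 enzyme activates ubiquitin and hands it to a cysteine of the E2, and the E2, with an E3 ligase, passes it on to a lysine of the target protein. The E2 helps set which kind of chain is built, and a few E2 enzymes carry ubiquitin-like proteins such as SUMO or NEDD8 in place of ubiquitin. Protein destruction through this system holds the fully grown oocyte in arrest and later drives it through meiosis, with the anaphase-promoting complex as the best known ligase.

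The libraries held 35805122 to 45230773 counts. Parp12 itself lay at 273 ± 60.5 CPM (counts per 1000000 counts of the library, mean ± SD of the 2 libraries of a group, here and below) in controls and 1.58 ± 1.17 CPM in knockdowns, a log2 fold change of −7.51 (SE 0.335, edgeR adjusted p = 1.27e-07). All 15 oocyte markers were detected, and their summed level was 30140 to 30880 CPM in controls and 31370 to 32230 CPM in knockdowns. Of 15 granulosa and cumulus markers, 8 were at 0 in every library, Amh, Foxl2 and Inhba among them, and the list summed to 48.5 to 52.2 CPM in controls and 43.8 to 45.4 CPM in knockdowns. Theca and stroma markers summed to 3.29 to 6.45 CPM in controls and 2.58 to 3.38 CPM in knockdowns, with Col3a1 and Col1a2 at 0 and Cyp11a1 at 70, 70, 11 and 5 counts in controls 1 and 2 and knockdowns 1 and 2. Blood and immune markers summed to 0.486 to 1.10 CPM in controls and 2.40 to 3.05 CPM in knockdowns, with Cd3e and Adgre1 at 0 and Cd68 at 0, 44, 130 and 74 counts. The endothelial list, nearly all of it Pecam1, summed to 109.7 to 113 CPM in controls and 104 to 108 CPM in knockdowns, with Cdh5 at 0. None of these markers passed the adjusted threshold. In such bulk samples fewer cells of a type and less RNA per cell cannot be told apart.

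In the GENCODE vM21 annotation of the same genome build (GRCm38, mm10), all 41 genes had the same span as in the count table, and 37 of them were protein-coding. The other 4 were Ube2uos, annotated as antisense to Ube2u; Ube2d-ps, a transcribed pseudogene; and the processed pseudogenes Ube2nl and Ube2d4. Not every coding member is an active E2 enzyme: Ube2v1 and Ube2v2 are variants without the active cysteine that pair with Ube2n, and Ube2cbp is a ligase-like protein named for its binding to an E2. Conversely, some E2 enzymes have names of another form, such as Cdc34, and are given at the end as part of the surrounding pathway. At least 1 count was seen for 35 members. The 6 at 0 in all libraries were Ube2l6, the E2 for the interferon-induced modifier ISG15, together with Ube2ql1, Ube2d2b, Ube2dnl2, Ube2nl and Ube2d4.

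The catalytic core of most E2 enzymes holds a His-Pro-Asn stretch a short way before the cysteine that carries ubiquitin, and most coding members share it. It was sought in the coding strand of 1 GENCODE transcript per gene, in frame, as CAT or CAC, then CCN, then AAT or AAC. In members the next TGT or TGC codon at any distance was taken, and each lay 8 or 9 codons after the Asn. Other genes were searched at that spacing alone. The codons were present in 22 of the 37 coding members (59.5%) and in 70 of 21710 other protein-coding genes (0.322%). The spacing in this contrast was thus read from the members, and the other genes include E2 genes of other names. The spacing was 8 codons in 20 members and 9 codons in Ube2k and Ube2h. Windows of abundant members and of Ube2c are shown because the levels and comparisons below turn on these genes. Each runs 5′ to 3′ on the coding strand from 2 codons before the His codon to 2 codons after the Cys codon, and capitals mark the His-Pro-Asn codons and the Cys codon.
Ube2d3: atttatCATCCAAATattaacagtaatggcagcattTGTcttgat
Ube2g1: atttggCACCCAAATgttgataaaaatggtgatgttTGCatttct
Ube2k: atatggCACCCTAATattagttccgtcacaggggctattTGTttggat
Ube2s: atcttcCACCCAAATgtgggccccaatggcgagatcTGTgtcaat
Ube2t: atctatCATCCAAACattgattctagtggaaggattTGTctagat
Ube2a: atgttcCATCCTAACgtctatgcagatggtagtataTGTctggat
Ube2b: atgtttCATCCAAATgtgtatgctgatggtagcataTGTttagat
Ube2c: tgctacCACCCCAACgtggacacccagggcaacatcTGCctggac
On GRCm38, 5 of these windows lie in a single coding exon: Ube2d3 at chr3:135459993-135460037 on the plus strand, Ube2k at chr5:65581404-65581451 (plus), Ube2s at chr7:4810473-4810517 (minus), Ube2t at chr1:134971290-134971334 (plus) and Ube2c at chr2:164771941-164771985 (plus). An intron splits the other 3: Ube2g1 at chr11:72673042-72673057 and chr11:72677705-72677733 (plus), Ube2a at chrX:36881731-36881746 and chrX:36882599-36882627 (plus), and Ube2b at chr11:51988672-51988700 and chr11:51991394-51991409 (minus). By the way the windows were found, their capitals differ only in codon choice.

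The stretch was not found in 14 coding members. Among them were both inactive variants, the 3 Ube2e genes, Ube2w, the membrane-anchored Ube2j1 and Ube2j2, the large or divergent Ube2o, Ube2q1 and Ube2q2, and Ube2z; no match says only that these letters are not in the transcript read. Ube2u held the His-Pro-Asn codons without a later Cys codon. Of the 10 members with a mean of at least 100 CPM, 9 held the codons, and Ube2w, which modifies the amino end of proteins, was the exception.

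Ube2 transcripts made up 0.494% and 0.496% of all counts in controls 1 and 2, and 0.531% and 0.504% in knockdowns 1 and 2. Both knockdown libraries were above both controls, and knockdown 2 lay closer to the controls than to knockdown 1. A single gene carried much of this: Ube2d3, a broadly acting E2 that works with many ligases, took 36.2%, 37.3%, 38.4% and 38.6% of the Ube2 counts in the same order, and with a mean of 1907 CPM it ranked 30 among all genes of the table by count. Per summed exon length, as described next, it ranked 593. Together with Ube2g1 and Ube2k it gave 54.8% to 56.7% of the Ube2 counts in every library. The spread within the family was wide, from 1907 CPM for Ube2d3 to 0.342 CPM for Ube2v1, the lowest tested member.

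**Figure D1:**
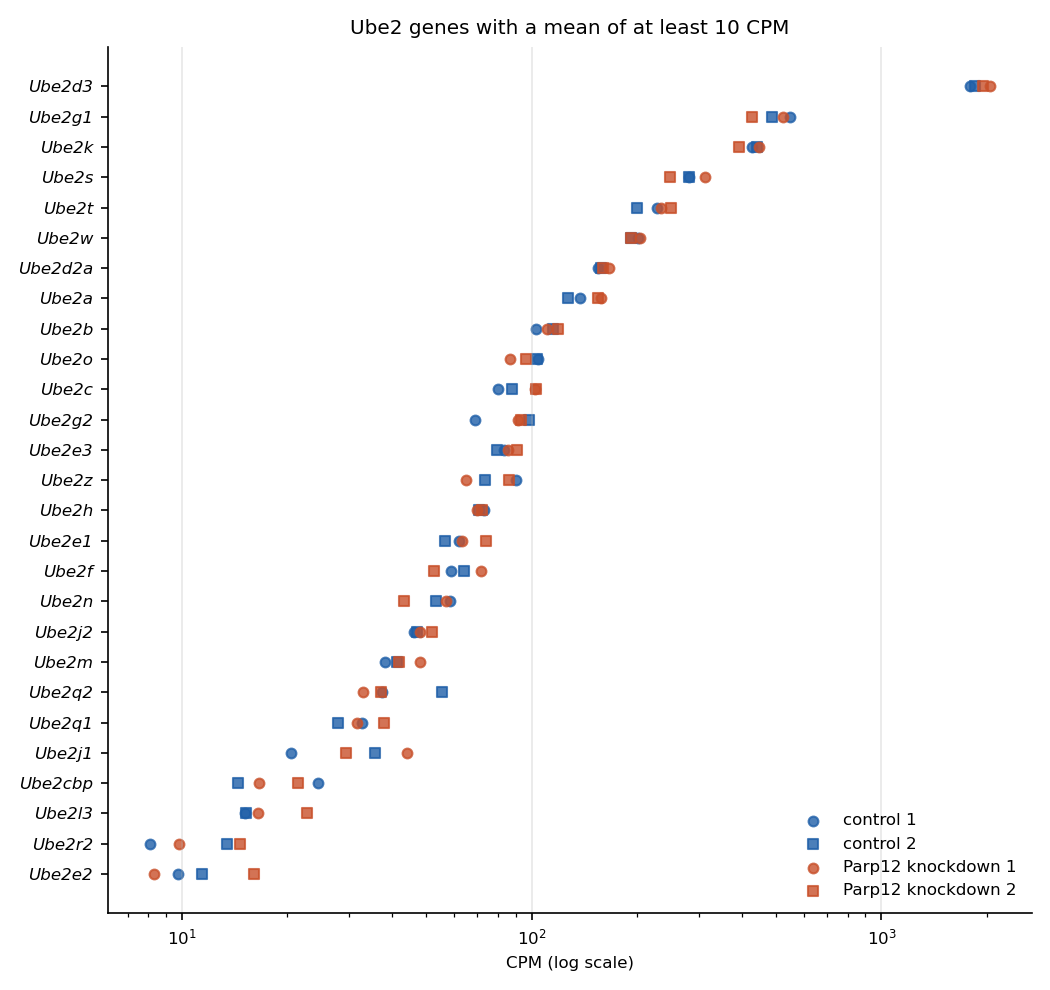
Level of 27 of the 28 Ube2 genes with a mean of at least 10 CPM, in CPM on a log axis. Each point is 1 library (blue for controls, orange for knockdowns, circles for replicate 1 and squares for replicate 2), and Ube2d3 stands alone at the top with a mean of 1907 CPM.

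Levels can be compared between genes only per transcript length. Expressed as RPKM (counts per 1000 nucleotides of the summed exon length in the table, per 1000000 counts of the library), the mean over 4 libraries was 108 for Ube2g1 (93.3 to 119), an E2 of protein degradation at the endoplasmic reticulum, and 77.8 for Ube2d3 (73.1 to 83.4). Ube2a followed at 63.5, Ube2s at 54.9, Ube2k at 54.0, Ube2b at 52.6 and Ube2t at 47.2 RPKM. The ranges of Ube2g1, Ube2d3 and Ube2a over the libraries did not overlap between the first and the second, nor between the second and the third. From Ube2a to Ube2t each gene's range overlapped the next one's, although the lowest Ube2a library lay above the highest of Ube2b and of Ube2t. The length used matters most for Ube2d3, whose exons in the table add up to 24499 nucleotides across all transcripts while its principal transcript has 1512. By the principal transcript, a choice made after the data were seen, Ube2d3 came first at 1261 RPKM and Ube2w second at 364 RPKM. Here the counts of all exons were divided by the shorter length, so neither value is the level of that transcript. The Ube2w transcript has 543 nucleotides, just its 180 codons and the stop codon, where its exons in the table add up to 4930. Its second place thus rests on a transcript annotated without untranslated ends. Of the 10 highest genes by this length, 8 were shared with the first order. The same 10 genes led in controls alone and in knockdowns alone.

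**Figure D2:**
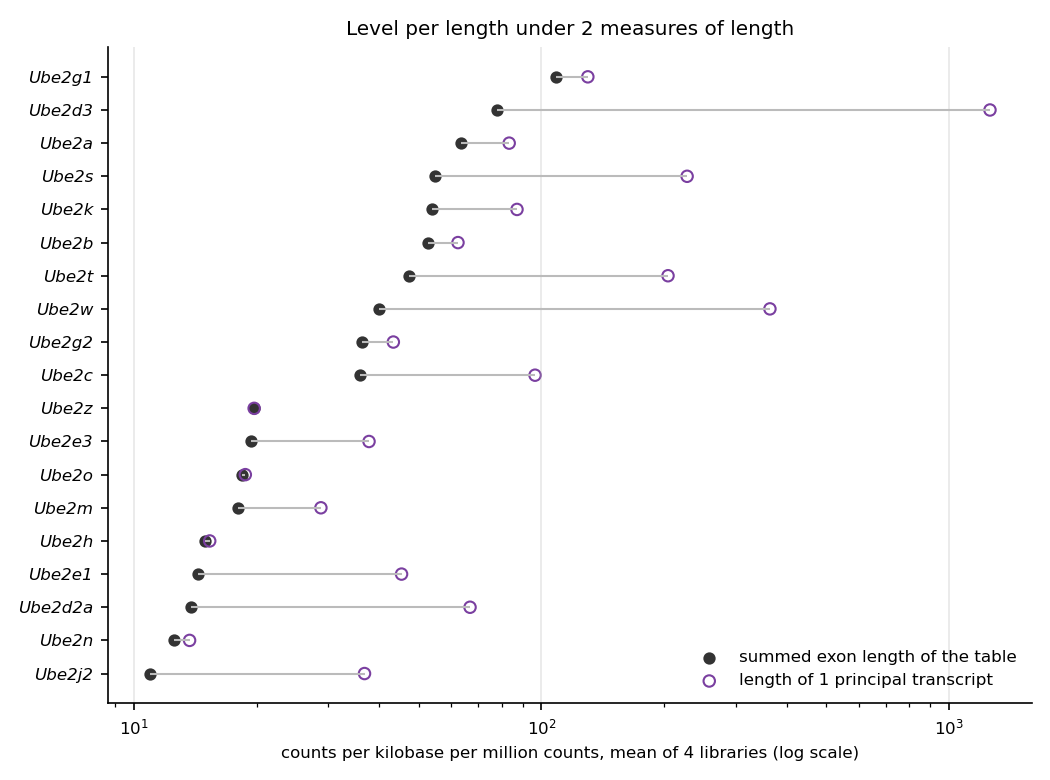
Mean level per length of 19 of the 20 highest Ube2 genes over the 4 libraries, in RPKM on a log axis. Filled points use the summed exon length of the table and open points the length of 1 principal transcript, and Ube2d3 moves from 77.8 to 1261 between them. Both divide the counts of all exons.

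Whether knockdown of Parp12 shifted these genes was tested on the counts of all genes together with edgeR. The filter on low counts kept 34 members among 15868 genes, leaving out the 6 genes at 0 and Ube2dnl1. None of the 34 passed an adjusted p of 0.05, where 0.0063% of all tested genes did, namely Parp12 alone; the members' adjusted p ran from 0.835 to 0.999. Before adjustment, 3 members had a p under 0.05 with a higher level in knockdowns, against 2.94% of all tested genes, and 0 had one with a lower level, against 2.57%. DESeq2, run as an alternative, also called 0 members while it called 1.86% of the 16389 genes to which it gave an adjusted p, and its lowest adjusted p among the members was 0.0756, for Ube2d3.

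More estimates lay above 0 than below. The log2 fold change of knockdown over control was above 0 for 23 members and below 0 for 11, a share of 67.6% above 0 where all tested genes had 50.4%, and the median was 0.10 where all tested genes had 0.003. Both knockdown libraries were above both controls in 12 members (35.3%, against 18.0% of all tested genes) and below both in 3 (8.82%, against 16.8%), and in 19 the groups overlapped. These shares describe 4 libraries shared by every gene, and the direction of the family as a whole was not tested. The summed oocyte markers and the blood and immune markers lay higher in both knockdowns, and the granulosa and cumulus and the endothelial markers lower, as given above, and their part in these shares was not tested. The distance of the members' median from that of all genes depended on both controls. It was 0.0987 with all libraries, 0.0222 without control 1 (0.0642 against 0.042) and 0.0314 without control 2 (0.0683 against 0.0368), and it was 0.114 and 0.0922 without knockdowns 1 and 2. Without control 2 the split was 20 above 0 and 14 below.

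For most members the data bounded the difference between these samples, whose spread may be technical. The 95% interval excluded a 2-fold change in either direction for 24 members (70.6%, against 46.7% of all tested genes), among them all 10 with at least 100 CPM. Of the 28 members with at least 10 CPM, 24 excluded it, close to the 87.0% of the 8432 genes at that level, and their log2 fold changes ran from −0.40 for Ube2q2 to 0.42 for Ube2j1. Both ends moved with single libraries: with each library left out in turn, Ube2q2 ran from −0.66 to −0.11 and Ube2j1 from 0.08 to 0.84. None of the 6 tested members under 10 CPM had an interval that excluded it.

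**Figure D3:**
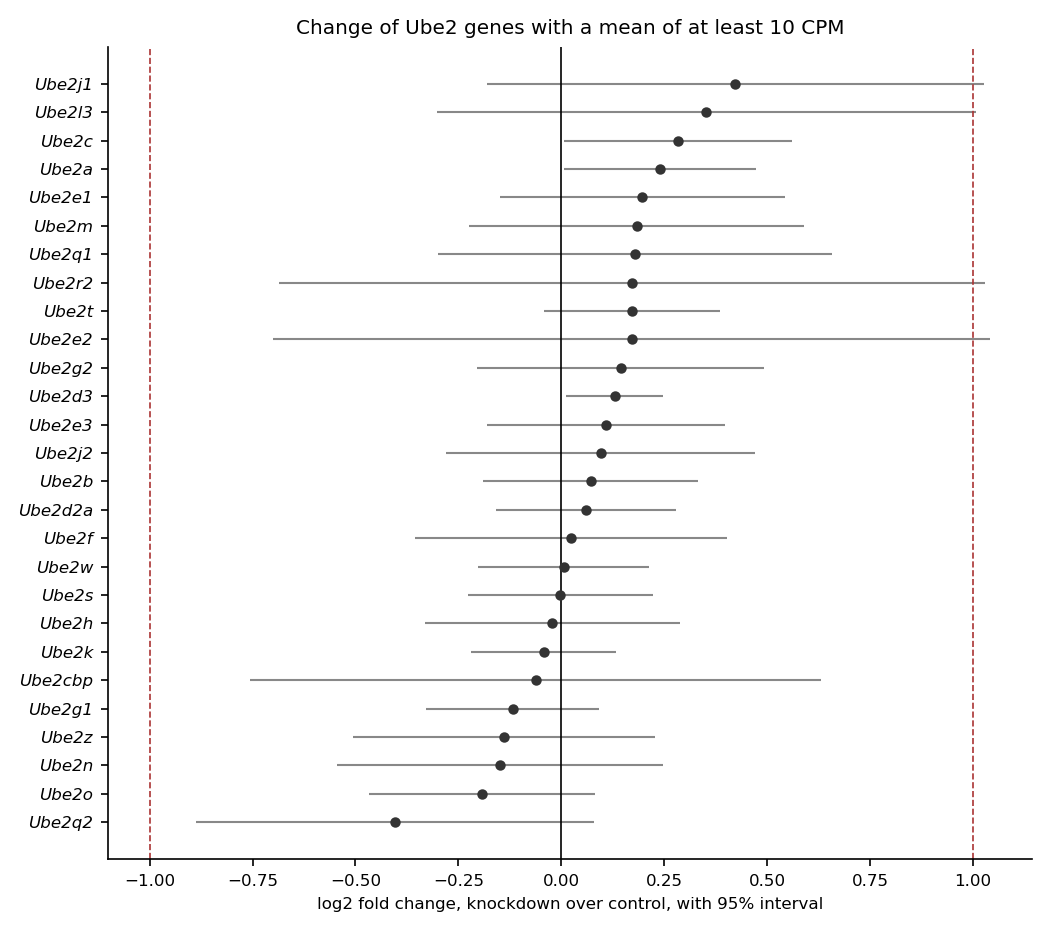
Log2 fold change of knockdown over control for 27 of the 28 Ube2 genes with a mean of at least 10 CPM, with the 95% interval from edgeR as bars. The solid line marks no change and the dashed lines a 2-fold change, and the intervals of 23 genes stay between the dashed lines.

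Ube2c and Ube2s are the E2 enzymes of the anaphase-promoting complex: Ube2c places the first ubiquitin and Ube2s extends the chain. Ube2c was counted 3636 and 3598 times in controls and 4347 and 3680 times in knockdowns, or 80.4 and 87.9 CPM against 102 and 103 CPM. Both knockdown libraries lay above both controls, and the knockdown libraries were nearly equal. The log2 fold change fitted to this was 0.28 (SE 0.128; 0.01 to 0.56 at 95%), for an unadjusted p of 0.0449 and an edgeR adjusted p of 0.835. Ube2c shares 22.8% of its exonic nucleotides with Tnnc2 on the opposite strand, and Tnnc2 was at 0 in all libraries. Ube2s lay at 283 CPM in both controls and at 314 and 249 CPM in knockdowns. The knockdown libraries fell on either side of the controls, and the fitted log2 fold change was −0.002 (95% interval −0.23 to 0.22).

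Among the broadly acting E2 enzymes, with 11 of 14 members tested, 9 estimates were above 0 and 2 below, with a median of 0.13. Ube2d3 was counted 80952 and 75756 times in controls and 86950 and 69657 times in knockdowns, or 1790 and 1850 CPM against 2042 and 1946 CPM. The groups did not overlap. Its mean was 1820 ± 43.0 CPM in controls and 1994 ± 68.4 CPM in knockdowns, a fitted 1.09-fold (95% interval 1.01 to 1.19). The log2 fold change was 0.13 (SE 0.054), with an unadjusted p of 0.0326 and an edgeR adjusted p of 0.835. Its close relative Ube2d2a lay at 155 and 158 CPM in controls and 167 and 160 CPM in knockdowns, with a log2 fold change of 0.06 (95% interval −0.16 to 0.28). Ube2d2a thus had non-overlapping groups too, by a margin of under 2 CPM. Ube2d1, of the same subfamily, was scarce, at 9.64 and 6.28 CPM in controls and 12.2 and 5.87 CPM in knockdowns. The coding sequences of Ube2d2a and Ube2d3 were identical at 86.3% of positions with a longest shared run of 42 nucleotides, and those of Ube2d1 and Ube2d3 at 77.3% with a run of 14.

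Ube2k, which builds lysine 48-linked chains, lay at 426 and 440 CPM in controls and 447 and 392 CPM in knockdowns. The knockdown libraries lay on either side of the controls, and the log2 fold change was −0.04 (95% interval −0.22 to 0.13). Ube2w lay at 202 and 192 CPM in controls and 204 and 192 CPM in knockdowns, the controls falling between the knockdowns, with a log2 fold change of 0.01 (95% interval −0.20 to 0.21). Of the 3 Ube2e enzymes, Ube2e1 and Ube2e3 had both knockdowns above both controls, with log2 fold changes of 0.20 and 0.11, and Ube2e2 overlapped between groups at 0.17. Of the exonic nucleotides of Ube2e1, 16.1% overlap Nkiras1 on the opposite strand, which lay at 103, 114, 88.3 and 130 CPM, so the Ube2e1 counts are uncertain. Ube2l3, the partner of HECT and RBR ligases, lay at 15.2 CPM in both controls and at 16.6 and 22.8 CPM in knockdowns, with a log2 fold change of 0.35 (95% interval −0.30 to 1.01). Of its exonic nucleotides, 28.6% overlap Ydjc on the opposite strand, so the Ube2l3 counts are uncertain. Ydjc had a mean of 2.53 CPM, from 26, 148, 189 and 53 counts. Ube2h, the E2 of the CTLH ligase, and Ube2r2, an E2 of cullin ligases, had overlapping groups and log2 fold changes of −0.02 and 0.17. Ube2dnl1, a Ube2d-like gene, had 16 counts in control 2 and 0 in the other 3 libraries. Its knockdown level was at most 39.5% of the control mean if a 0 is read as up to 3 counts per library, and that mean rests on 1 library.

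The 6 members of the DNA damage and lysine 63 chain group were all tested, with 4 estimates above 0 and 2 below. Ube2a and Ube2b, the Rad6 homologs, act with Rad18 on damaged DNA and with Rnf20 and Rnf40 on histone H2B. Ube2a was counted 6204 and 5217 times in controls and 6741 and 5534 times in knockdowns, or 137 and 127 CPM against 158 and 155 CPM. Both knockdown libraries were higher than both controls, with a log2 fold change of 0.24 (SE 0.108, 95% interval 0.01 to 0.47), an unadjusted p of 0.0455 and an edgeR adjusted p of 0.835. Ube2b overlapped between groups, at 103 and 115 CPM in controls and 111 and 119 CPM in knockdowns, with a log2 fold change of 0.07 (95% interval −0.19 to 0.33). The coding sequences of Ube2a and Ube2b are equally long and were identical at 356 of 459 positions (77.6%), with no shared run over 17 nucleotides; a difference between their changes was not tested.

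Ube2t, the E2 of the Fanconi anemia pathway, lay at 228 and 201 CPM in controls and 234 and 251 CPM in knockdowns. The groups did not overlap, though control 1 and knockdown 1 were close, and the log2 fold change was 0.17 (95% interval −0.04 to 0.39, edgeR adjusted p = 0.841). With each library left out in turn the Ube2t estimate ran from 0.07 to 0.28. Ube2n, the Ubc13 homolog that builds lysine 63-linked chains, lay at 58.5 and 53.3 CPM in controls and 57.0 and 43.2 CPM in knockdowns, with overlapping groups and a log2 fold change of −0.15. Its inactive partners were nearly absent by count. Ube2v1 had 26, 0, 16 and 15 counts and Ube2v2 had 66, 127, 26 and 76 counts in controls 1 and 2 and knockdowns 1 and 2. The count of Ube2v1 is uncertain, because 61.5% of its exonic nucleotides belong to the same-strand gene Gm20431, which itself had 0 counts in every library, and the sources used here do not say how reads shared by overlapping genes were treated.

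**Figure D4:**
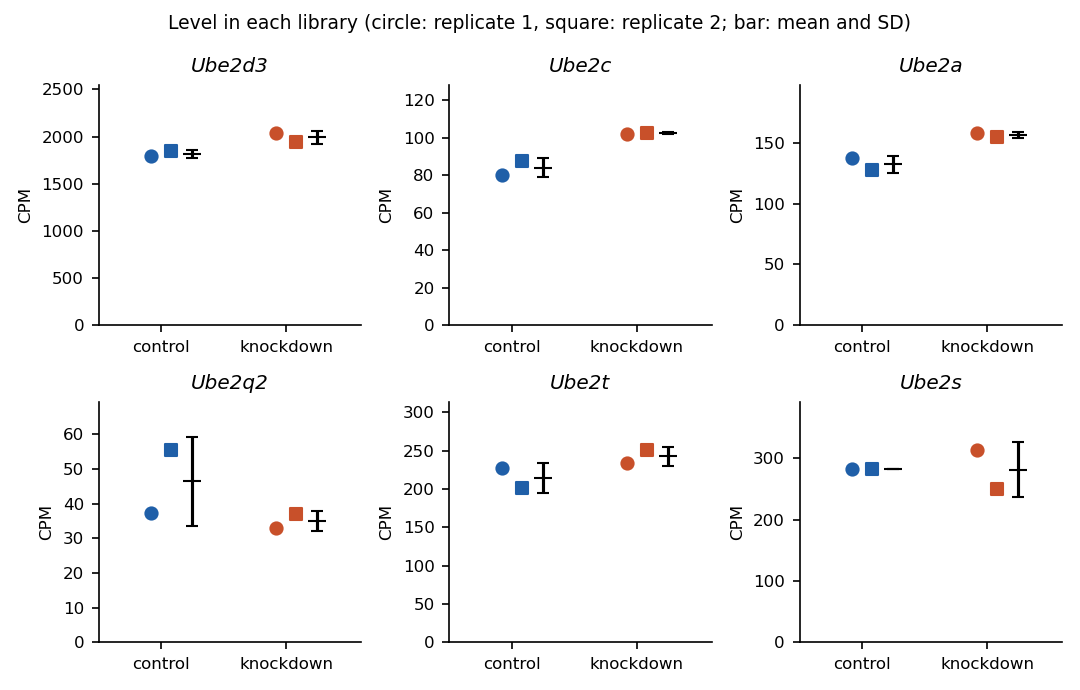
Level of 6 Ube2 genes in CPM, with 1 point per library and the mean and SD of the 2 libraries of a group beside them. Ube2d3, Ube2c, Ube2a and Ube2t have both knockdown points above both control points, Ube2q2 has both below, and the knockdown points of Ube2s lie on either side of the controls.

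The 4 E2 enzymes of the endoplasmic reticulum, which serve the removal of misfolded proteins, were all tested. Ube2g1 lay at 546 and 486 CPM in controls and 524 and 427 CPM in knockdowns. The groups overlapped, with knockdown 2 the lowest library, and the estimate was −0.12 on the log2 scale (SE 0.097, 95% interval −0.33 to 0.09, edgeR adjusted p = 0.913). Without knockdown 1 its unadjusted p was under 0.05 at a log2 fold change of −0.27, and without knockdown 2 the estimate was 0.02. Ube2j1, a membrane-anchored E2, varied most in this group, at 20.5 and 35.6 CPM in controls and 44.0 and 29.4 CPM in knockdowns. Control 2 lay above knockdown 2, and the log2 fold change of 0.42 had a 95% interval of −0.18 to 1.03. Ube2g2 overlapped between groups at a log2 fold change of 0.14, and Ube2j2 had both knockdowns above both controls at 0.10.

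E2 enzymes for ubiquitin-like proteins had 4 of 5 members tested, with 3 estimates above 0 and 1 below. Ube2m, which carries NEDD8 to cullins, lay at 38.2 and 41.3 CPM in controls and 48.0 and 41.9 CPM in knockdowns. Its groups did not overlap, by less than 1 CPM between control 2 and knockdown 2, and the log2 fold change was 0.18 (95% interval −0.22 to 0.59; 0.08 to 0.27 with each library left out in turn). Ube2f, the other NEDD8 enzyme, and Ube2z, the E2 charged by Uba6 for ubiquitin and FAT10, overlapped between groups at log2 fold changes of 0.02 and −0.14.

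The large or divergent members were the one coding group with a median below 0, at −0.06 over 5 tested genes, 3 of them with estimates below 0. That median is the estimate of Ube2cbp, which ran from −0.387 to 0.396 with each library left out in turn. Ube2q2 lay at 37.4 and 55.5 CPM in controls and 33.0 and 37.1 CPM in knockdowns. Both knockdowns were below both controls, but control 1 and knockdown 2 differed by less than 1 CPM. On the log2 scale this was −0.40 (SE 0.223, 95% interval −0.89 to 0.08, edgeR adjusted p = 0.835). Ube2o, a large enzyme that acts as both E2 and E3, lay at 104 CPM in both controls and at 86.8 and 96.0 CPM in knockdowns, with both knockdowns below both controls and a log2 fold change of −0.19 (95% interval −0.47 to 0.08). Ube2q1 overlapped at 0.18 and Ube2cbp at −0.06. Ube2u had both knockdowns above both controls at a log2 fold change of 0.43, at 5.08 to 8.38 CPM.

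Of the 4 members not annotated as protein-coding, 2 were tested. Ube2uos had 73 and 24 counts in controls and 0 and 5 counts in knockdowns. Both knockdown libraries were lower, and the fitted log2 fold change of −4.08 had a 95% interval of −8.55 to 0.39 (edgeR adjusted p = 0.835) and ran from −8.60 to −2.98 with each library left out in turn. It lies within the span of Ube2u on chromosome 4 on the opposite strand, without exonic overlap, and the sources used here do not say whether counts were kept by strand. Ube2d-ps lay at 3.80 and 3.93 CPM in controls and 5.71 and 6.03 CPM in knockdowns, with a log2 fold change of 0.60 (95% interval −0.57 to 1.76).

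Shared sequence could move counts between genes for some members. Stretches of 50 nucleotides that also occur in another gene made up over 10% of the annotated transcript sequence in 9 members and none in 11. The share was 63.5% for Ube2v1, 44.2% for Ube2h, 32.3% for Ube2l3 and 0% for Ube2a and Ube2b. For Ube2h nearly all of it lay in Gm26526, which had a mean of 4.48 CPM where Ube2h had 71.5 CPM. Exons of 31 members overlapped no other gene.

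The genes around the E2 step were described by 10 lists: E1 enzymes, E2-fold genes of other names, ubiquitin and ubiquitin-like genes, and ligase groups that work with the members above. Of 119 genes in the table, 115 were tested and 0 passed the adjusted threshold; before adjustment 5 had a p under 0.05 with a higher and 2 with a lower level in knockdowns, where all tested genes had 2.94% and 2.57%. Their median log2 fold change was 0.03, with 64 above 0 and 51 below. The interval excluded a 2-fold change for 95 of the 115. All tested genes had 46.7%, and genes with at least 10 CPM had 87.0%. Uba1, the main E1 enzyme, lay at 576 ± 16.6 CPM in controls and 587 ± 24.2 CPM in knockdowns. The polyubiquitin gene Ubb lay at 1651 ± 20.9 and 1704 ± 95.4 CPM, and Cdc34, an E2 of SCF ligases, at 85.8 and 91.5 CPM in controls and 95.9 and 88.0 CPM in knockdowns. None of these 3 genes differed between groups by more than the spread of the libraries.

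By list, the genes with the smallest p were spread in both directions. Birc6, a giant protein with an E2 domain, lay at 24.2 ± 2.86 CPM in controls and 35.4 ± 3.20 CPM in knockdowns, with a log2 fold change of 0.55 (95% interval 0.05 to 1.04, edgeR adjusted p = 0.835). Rnf8, the ligase that works with Ube2n at DNA breaks, lay at 46.6 ± 5.91 and 61.7 ± 2.67 CPM, a log2 fold change of 0.40 (edgeR adjusted p = 0.835). Senp1, a SUMO protease, lay at 252 ± 12.6 and 214 ± 6.62 CPM, a log2 fold change of −0.24 (edgeR adjusted p = 0.835). In these 3 genes, picked for the smallest p of their lists, the groups did not overlap. Among all tested genes both knockdowns lay above both controls in 18.0% and below in 16.8%. Of the anaphase-promoting complex and its regulators, 17 of 17 were tested and 0 called, with a median log2 fold change of 0.04. Cdc23, a scaffold subunit, had the smallest p there at 150 and 326 counts in controls and 607 and 281 counts in knockdowns, with overlapping groups. The remaining lists were led by Sel1l (log2 fold change 0.27), Ubl5 (0.27), Dcun1d5 (0.16), Ubb (0.04), Uba3 (−0.23) and Gid8 (−0.35), none of which was called. Isg15 and Ubd, the genes for ISG15 and FAT10, were at 0 in every library, as was Ube2l6.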

How the data were processed

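Poly(A) RNA of 2 control and 2 Parp12 knockdown libraries was sequenced, and the authors deposited raw counts for each gene beside its exon positions and the sum of its exon lengths, per the file headers. The submitters' processing notes list, without roles, mm10, DESeq2 1.28.1, featureCounts 2.0.0, STAR 2.7.5b and Trim Galore 0.6.4. The sources used here do not give the strand setting, the treatment of multiply aligned reads or the unit counted (reads or fragments), which bears on members with close copies or overlapping neighbours. Library totals were 45230773 and 40938363 counts (controls) and 42576499 and 35805122 (knockdowns).

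Counts were fitted in R 4.3.3 with edgeR 4.0.16 (filterByExpr, TMM, glmQLFit with robust estimation in its newer form, glmQLFTest, two-sided, group as the only term) over 15868 genes, with Benjamini-Hochberg adjustment over all of them at 0.05. The 95% interval is the SE, from the F statistic, times a t quantile on each side of the estimate. CPM uses library totals. Nothing says that replicates came from separate animals, so a p-value reflects the spread of these samples alone, which may be technical; an exact permutation test of 1 value over the 6 arrangements of 4 libraries cannot go below 0.333, so none is given. Intervals and limits cover counting error or that spread, since PCR copies are not independent molecules.

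The members, role groups and pathway lists were chosen with earlier results of these data known. Values are given library by library for members with a mean of at least 100 CPM, an unadjusted p under 0.05, the smallest p of a role group, or 0 in both libraries of a group with at least 10 counts in the other; in pathway lists the gene with the smallest p is named, and Parp12 checks the labels. Other members and Uba1, Ubb and Cdc34 were added for their role after their values were seen, though Ubb also had the smallest p of its list. A member is not reported here, though the counts over members include it. Sequences, positions and shared stretches are from GENCODE vM21 (GRCm38) transcripts, 1 per gene for coding sequence: APPRIS principal, then CCDS, then longest. Alternatives were 3 other scalings (upper-quartile, median-of-ratios, none), no low-count filter, at least 1 CPM in both libraries of either group, a replicate block, DESeq2 1.42.0, limma-voom (limma 3.58.1), leaving out each library, and, added after the data were seen, edgeR's legacy fit and the principal transcript's length.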

Additional observations from a re-analysis of the deposited data

How the results depend on the processing

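The count of Ube2 genes past the threshold was 0 under each of 13 alternatives, and their median log2 fold change ran from 0.0634 to 0.106. Relative to all genes under the same setting it ran from 0.087 to 0.103 with all libraries kept, but was 0.0222 and 0.0314 without control replicates 1 and 2. With the replicate block the median was 0.102, and that fit changed no call. Same-numbered libraries did not deviate together (r = 0.0148 over 8432 genes, given as a description). With 2 libraries per group this cannot tell whether they shared a collection or batch, and the labels do not say. Unadjusted p under 0.05 covered 1 to 4 members, depending on the library left out: Ube2g1 alone without knockdown replicate 1, Ube2d3 alone without knockdown replicate 2, Ube2t, Ube2a and Ube2q2 without control replicate 1, and Ube2c, Ube2d3, Ube2j1 and Ube2g2 without control replicate 2. All genes past the threshold numbered 1, against 8 with the 1 CPM filter, 305 with DESeq2, 0 with limma-voom and 1 to 2 with a library left out (2 without knockdown replicate 1); the cause was not tested. Over the alternatives, 596 values of 33 tested members and 13 other named genes were computed. Of these, 26 turned direction, in 17 genes. Parp12 lost its call with limma-voom (log2 fold change −7.73, adjusted p = 0.28), and no other call changed. Direction turned for Ube2s without the low-count filter (0.000905) and, with each library left out in turn, for Ube2w (−0.039 to 0.0539), Ube2k (−0.141 to 0.0458), Ube2s (−0.181 to 0.148), Ube2g1 (−0.274 to 0.0176), Ube2g2 (−0.0858 to 0.404), Ube2h (−0.0543 to 0.0145), Ube2n (−0.374 to 0.0224), Ube2f (−0.229 to 0.215), Ube2z (−0.346 to 0.0682), Ube2r2 (−0.152 to 0.557), Ube2e2 (−0.344 to 0.609), Ube2d1 (−0.455 to 0.595), Ube2cbp (−0.387 to 0.396), Ube2v1 (−0.55 to 6.99), Cdc34 (−0.0101 to 0.113), Uba1 (−0.0171 to 0.0693) and Ubb (−0.0152 to 0.102). At this depth none of the 6 tested members under 10 CPM had an interval that excluded a 2-fold change.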

Other observations

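Of the symbols left out by the naming rule, Ube2l3-ps1 had 0 counts in every library. Ube2n-ps1 had 6 and 25 counts in controls 1 and 2 and 4 and 32 counts in knockdowns 1 and 2, so replicate 2 was the higher library in both groups. Ube2n itself had a mean of 53.0 CPM, against 0.433 CPM for Ube2n-ps1.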
